A study of Mus musculus with 6 samples.

Results

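The hnRNP and SR protein families, with their partners at the branch site and the 3' splice site, were followed in somite-level tissue of mouse embryos. The members were the probe sets annotated to exactly 1 gene whose symbol begins with Hnrnp, Srsf, Sf3a or Sf3b, or is Tra2a, Tra2b, Ptbp1, Ptbp2, U2af1, U2af2 or Sf1, with Hnrnpl left out. This gave 111 probe sets of 42 genes, out of 22690 probe sets on the array and 12393 genes named by a probe set of their own. A further 7 probe sets named Hnrnpa1 or Hnrnpa3 together with other genes and were not members, so Hnrnpa3 is not covered.

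Wild-type pools (Dll3+/+) were compared with pools of the genotype Dll3-tm1Rbe/tm1Rbe, or Dll3neo/neo, all of strain c57bl/6 and aged 9.5 days post coitum. Dll3 encodes a Notch ligand required for somite segmentation. The tissue reached from the otic placode to the newest somite, without heart and endoderm, so it could also hold neural tube, surface ectoderm and blood. There were 3 pools of embryos per genotype, each read on its own Affymetrix MOE430A array, and the number of embryos in a pool is not given in the sources used. Every value is a linear ratio, and in 109 of the 111 member probe sets the median of the 6 pools is 1 (within 0.0015), so values there are relative to that median. It shows how a probe set differs between pools and not how strongly a gene is expressed, so the presence of somite markers could not be checked as a level and members were not ranked by abundance. In pooled tissue, fewer cells of a type and less RNA per cell cannot be told apart. The Dll3 probe set itself read 0.960, 1.004 and 1.028 in wild-type and 0.996, 1.013 and 0.941 in mutant pools, a log2 difference of -0.021 (SE 0.0837); its place relative to the insertion is unknown, so it checks no label.

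Most mammalian transcripts are spliced by removal of introns in the spliceosome. SR proteins carry RNA recognition motifs and a tail of arginine and serine repeats, bind exons and mostly favour their inclusion, whereas hnRNPs coat nascent transcripts and often oppose it. SF1 and the U2AF pair read the branch point, the polypyrimidine tract and the 3' end of the intron, and SF3A and SF3B then hold U2 snRNP on the branch site. Several of these genes limit their own output through alternative exons that send the transcript to decay.

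No member differed between the genotypes past an adjusted p of 0.05 in limma (Benjamini-Hochberg over 22626 probe sets), and neither did any other probe set, a background of 0%. The smallest adjusted p among the members was 0.99996. At an unadjusted p under 0.05 there was 1 member, a probe set of Hnrnph1, which is 0.901% of the members against 2.63% of all probe sets. The 3 mutant pools did not overlap the 3 wild-type pools in 10 member probe sets, or 9.01%, against 7.46% of all probe sets. The first share lies below the background and the second near it. An exact permutation test of 3 pools against 3 has 0.1 as its lowest possible p, and the small number of arrays limits what could be resolved.

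Log2 differences, mutant minus wild-type, ran from -0.30 to 0.29 over the 111 probe sets, with 51 above 0 and 60 below. With the probe sets of a gene averaged, 19 genes lay above 0 and 23 below (45.2% above, against 51.9% of all 12393 genes). The median over the 42 genes was -0.011, beside 0.0035 over all genes. The median SE was 0.104, and the 95% interval reached a median of 0.229 to each side. In 107 of the 111 probe sets (96.4%, against 97.1% of all probe sets) that interval lay wholly between -0.5 and 0.5. The other 4 were probe sets of Hnrnpa2b1 (upper bound 0.65), Hnrnpdl (lower bound -0.88), Tra2a (lower bound -0.66) and Hnrnpu (lower bound -0.54).

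**Figure D1:**
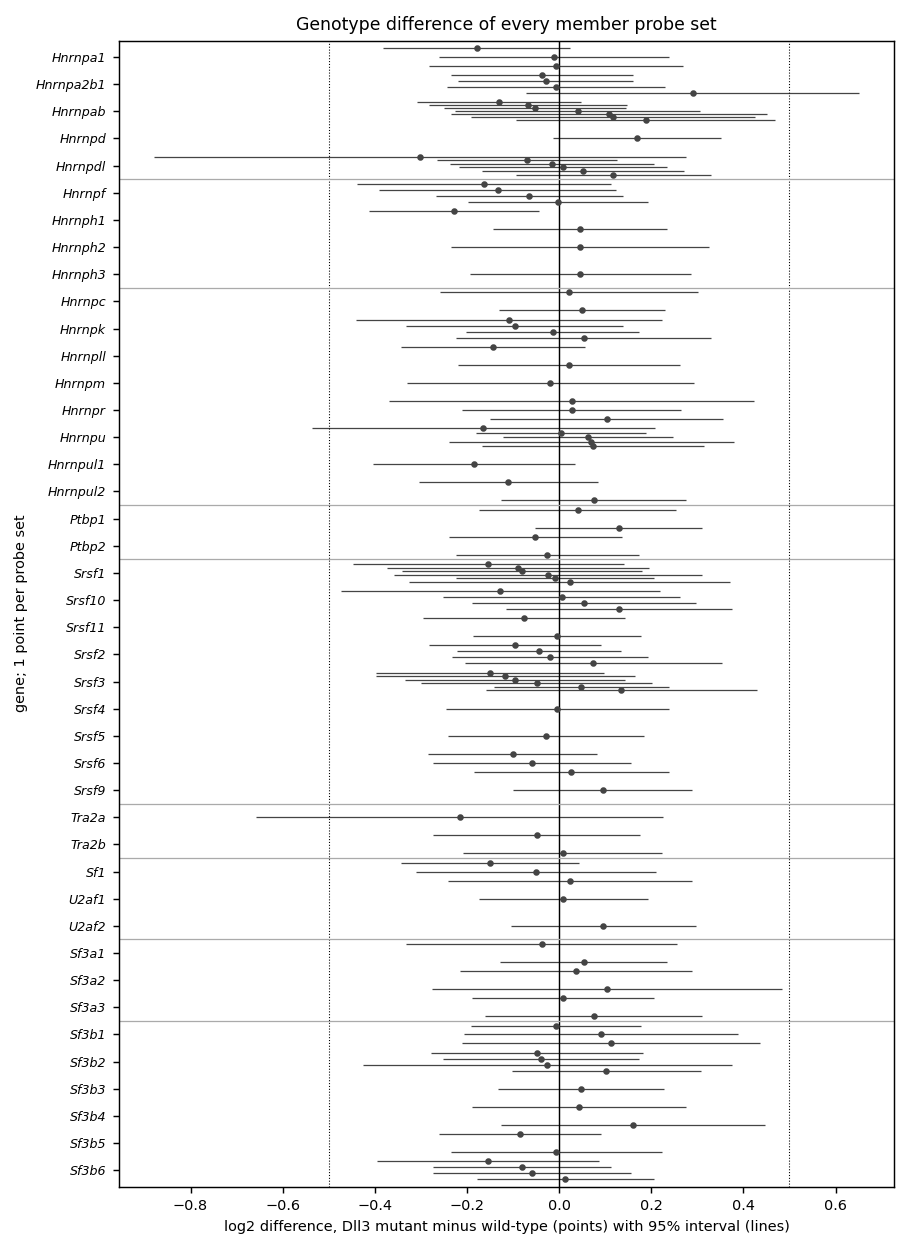
Log2 difference (Dll3 mutant minus wild-type, horizontal axis) of each of the 111 member probe sets, as points with 95% limma intervals, grouped by gene and role, with dotted lines at -0.5 and 0.5. Every interval except that of 1 Hnrnph1 probe set includes 0, and 4 reach past a dotted line.

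Single pools of both genotypes held the extreme values of many members. Of the 111 probe sets, 52 had their highest value in wild-type replicate 3 (46.8%, against 22.04% of all probe sets), and 6 had it in wild-type replicate 1. The lowest value fell in mutant replicate 1 for 37 members (33.3%, against 20.4% of all) and in wild-type replicate 1 for 23 (20.7%, against 13.7% of all). With each probe set centred on its mean over the 6 pools, the mean log2 level of the 42 genes was -0.053, -0.026 and 0.087 in wild-type and -0.066, 0.019 and 0.040 in mutant pools. The same mean over all 12393 genes ran from -0.010 to 0.0082.

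**Figure D2:**
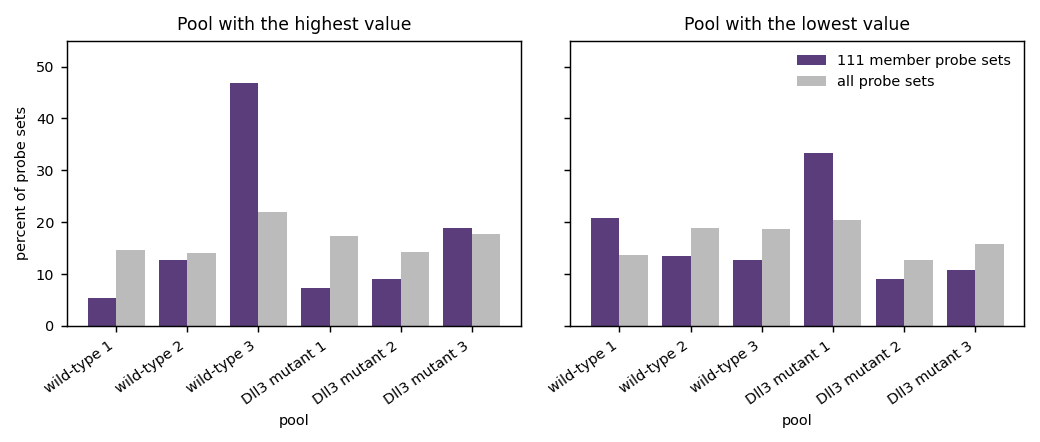
Percent of probe sets (vertical axis) whose highest (left) or lowest (right) ratio lies in each of the 6 pools, for the 111 members and for all probe sets. Wild-type replicate 3 holds the highest value of 46.8% of members, and mutant replicate 1 the lowest of 33.3%.

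The first principal component over all probe sets, with 42.0% of the variance, puts the pools in the same order as the mean level of the member genes. Its scores were -11.5, -8.30 and 18.2 in wild-type and -15.2, 5.39 and 11.4 in mutant pools. Array weights fitted by limma were lowest for the pools at its ends, 0.482 for wild-type replicate 3 and 0.550 for mutant replicate 1, and ran from 1.03 to 1.85 for the rest. The sex mix also differed between the pools. The Xist level minus the mean of Eif2s3y, Kdm5d and Uty (log2) was -0.0850, -1.48 and -1.73 in wild-type pools. In mutant pools it was 0.0449, 0.814 and 0.729, each above every wild-type pool. In 6 pools a fit with this score as a covariate separates it from genotype poorly.

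Marker lists differed between these pools too. The mean centred log2 level of the proliferation list (4 of 5 genes measured) was -0.077, 0.0042 and 0.040 in wild-type and -0.13, 0.10 and 0.058 in mutant pools, with replicate 1 lowest in both genotypes. That of the 5 surface ectoderm markers was -0.24, -0.25 and 0.20 in wild-type and 0.078, -0.0080 and 0.22 in mutant pools, and that of the 6 neuronal markers was 0.11, 0.042 and -0.17 in wild-type and -0.23, 0.30 and -0.045 in mutant pools. Primitive erythroid markers (5 of 6 measured, all above 0, median difference 0.24, 5 of 11 probe sets at an unadjusted p under 0.05 in limma) stood at -0.047, -0.16 and -0.15 in wild-type and 0.030, 0.29 and 0.040 in mutant pools. That count was 2 of 9 for somite and myotome, 1 of 8 for heart muscle and 1 of 14 for neuronal markers. It was 0 in the other lists, against 2.63% of all probe sets. The 5 surface ectoderm genes also all lay above 0 (median difference 0.17). The 8 somite and myotome markers stood at -0.0051, 0.10 and 0.083 in wild-type and -0.18, -0.046 and 0.046 in mutant pools, and the 6 neural progenitor markers ran from -0.13 in mutant replicate 1 to 0.098 in mutant replicate 2. The 5 endothelial markers ran from -0.10 to 0.085. The 5 heart muscle markers stood at 0.0044, -0.069 and -0.064 in wild-type and 0.033, 0.030 and 0.066 in mutant pools, so every mutant pool was above every wild-type pool, with 4 of 5 genes above 0 (median difference 0.086). The part of these lists, and of the sex mix, in the members' values was not tested beyond the covariate fit given at the end.

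Without wild-type replicate 3 the median over the 42 genes was 0.035, with 29 genes above 0 and 13 below. Over all genes it was 0.0085, with 6627 above 0 and 5766 below. Leaving out a high wild-type pool, or a low mutant pool, raises mutant minus wild-type by construction. Without mutant replicate 1 the medians were 0.029 and 0.012. With wild-type replicate 3 left out, at an unadjusted p under 0.05 there were 7 members (6.31%) against 5.43% of all probe sets, and none passed the adjusted threshold in limma. They were 2 probe sets of Hnrnpab (0.29 and 0.28) and 1 each of Hnrnpa2b1 (0.47), Srsf3 (0.28), Srsf1 (0.24), Hnrnpr (0.23) and Hnrnph1 (-0.25).

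**Figure D3:**
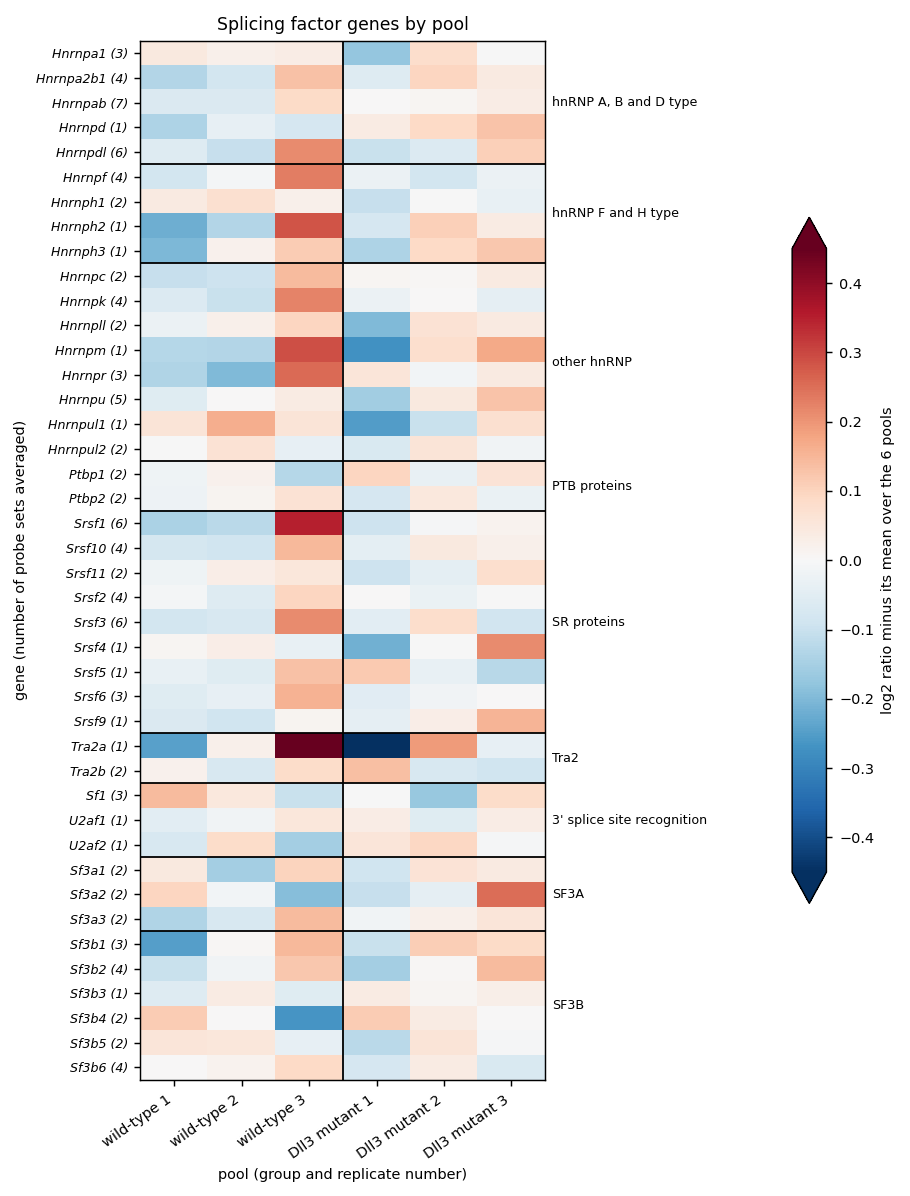
Level of each of the 42 genes (rows, with the number of probe sets averaged) in each pool (columns), as log2 ratio minus its mean over the 6 pools, with lines between role groups and between genotypes. Wild-type replicate 3 is the highest pool for 23 genes and mutant replicate 1 the lowest for 14.

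Among the 9 role groups, SR proteins had the largest share of probe sets with their highest value in wild-type replicate 3, 19 of 28 (67.9%). The hnRNP F and H type followed with 5 of 8 (62.5%). Counted by gene, SR proteins did not stand apart. That pool was the highest for 66.7% of SR genes and 66.7% of the 3 SF3A genes. It was so for 62.5% of other hnRNP genes and 60% of the hnRNP A, B and D type, against 21.4% of all genes. Over the 9 SR genes the mean centred level was -0.053, -0.051 and 0.12 in wild-type and -0.052, 0.0019 and 0.030 in mutant pools. In wild-type replicate 3 the means of Tra2 (0.31), hnRNP F and H type (0.16) and other hnRNP genes (0.13) were higher. Those of the remaining groups were lower. The median SD of an SR probe set (log2) was 0.175 among wild-type and 0.0875 among mutant pools, where all probe sets had 0.109 and 0.107. The SR genes with Tra2a and Tra2b numbered 2 above 0 and 9 below (median -0.028). Without wild-type replicate 3 the counts were 9 above and 2 below (median 0.023). A rise follows from leaving out the pool that was highest in most of these probe sets. With any other single pool left out the median stayed below 0, from -0.061 to -0.018. The hnRNP genes with Ptbp1 and Ptbp2 numbered 9 above and 10 below (median -0.018), 13 and 6 without wild-type replicate 3 (median 0.060) and 14 and 5 without mutant replicate 1 (median 0.036).

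Srsf1, the prototype SR protein, had its highest value in wild-type replicate 3 in all 6 of its probe sets. Probe set 1428100_at read 1.003, 0.984 and 1.423 in wild-type and 0.963, 0.997 and 1.062 in mutant pools. The other wild-type pools lay inside the mutant range, and replicate 3 stood above every other pool. Its log2 difference was -0.15 (SE 0.134), with a 95% interval of -0.45 to 0.14, and 0.019 without that pool. Probe set 1430982_at read 0.824, 0.908 and 1.365 in wild-type and 0.977, 1.071 and 1.023 in mutant pools, a difference of 0.023 that was 0.24 without wild-type replicate 3. Over the 6 probe sets the differences ran from -0.15 to 0.023.

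Srsf3, the smallest SR protein, was highest in wild-type replicate 3 in 4 of 6 probe sets. Probe set 1416151_at read 0.784, 0.945 and 1.164 in wild-type and 0.971, 1.143 and 1.029 in mutant pools, a difference of 0.14 (SE 0.134) that was -0.0049 once wild-type replicate 1 was left out. Probe set 1416150_a_at read 0.975, 1.025 and 1.254 in wild-type and 0.897, 1.060 and 0.964 in mutant pools, a difference of -0.15 (SE 0.112). In both the genotypes overlapped and wild-type replicate 3 was the highest pool, yet the differences had opposite signs.

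Tra2a and Tra2b encode SR-like proteins that bind GAA-rich exon enhancers. Tra2a, with 1 probe set, read 0.848, 1.020 and 1.468 in wild-type and 0.720, 1.148 and 0.980 in mutant pools. Its highest pool was wild-type replicate 3 and its lowest mutant replicate 1, and the groups overlapped. The difference was -0.22 (SE 0.201), and 0.0033 without wild-type replicate 3 or -0.030 without mutant replicate 1. Tra2b differed by 0.0082 and -0.049 in its 2 probe sets, and mutant replicate 1, the lowest pool of Tra2a, was the highest in both (1.073 and 1.098).

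Promoters of 4 genes, chosen after their values were seen, are shown because the genes stand for both patterns: Srsf1, Srsf3 and Tra2a are high in wild-type replicate 3, and Hnrnpd has the smallest p of the members that were higher in mutant pools. Each is 300 bases from RefSeq (build GRCm38.p6), 250 before and 50 after the start, written 5′ to 3′ along the gene's strand. Capitals mark the ETS motif CCGGAAG, the GC box GGGCGG, the CCAAT box CCAAT and the TATA motif TATAAA on either strand.
Srsf1 (chr11:88047123-88047422, plus strand): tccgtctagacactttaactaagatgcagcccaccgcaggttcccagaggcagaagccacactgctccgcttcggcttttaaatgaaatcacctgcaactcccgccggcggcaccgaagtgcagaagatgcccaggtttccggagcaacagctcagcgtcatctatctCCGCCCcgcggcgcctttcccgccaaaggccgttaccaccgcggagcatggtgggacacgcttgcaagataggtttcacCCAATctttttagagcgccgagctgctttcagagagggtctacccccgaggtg
Srsf3 (chr17:29032410-29032709, plus strand): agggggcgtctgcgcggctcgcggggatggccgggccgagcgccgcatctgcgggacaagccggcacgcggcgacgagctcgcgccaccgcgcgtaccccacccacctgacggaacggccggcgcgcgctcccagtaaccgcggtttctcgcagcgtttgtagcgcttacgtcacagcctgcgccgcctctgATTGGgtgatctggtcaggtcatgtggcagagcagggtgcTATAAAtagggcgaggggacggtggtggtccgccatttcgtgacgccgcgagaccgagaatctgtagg
Tra2a (chr6:49264003-49264302, minus strand): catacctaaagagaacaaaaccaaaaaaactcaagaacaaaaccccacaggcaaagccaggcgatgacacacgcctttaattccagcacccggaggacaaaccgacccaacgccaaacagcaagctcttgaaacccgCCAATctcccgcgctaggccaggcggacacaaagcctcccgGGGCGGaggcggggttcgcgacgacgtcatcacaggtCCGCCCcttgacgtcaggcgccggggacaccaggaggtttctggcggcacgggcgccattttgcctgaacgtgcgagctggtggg
Hnrnpd (chr5:99978889-99979188, minus strand): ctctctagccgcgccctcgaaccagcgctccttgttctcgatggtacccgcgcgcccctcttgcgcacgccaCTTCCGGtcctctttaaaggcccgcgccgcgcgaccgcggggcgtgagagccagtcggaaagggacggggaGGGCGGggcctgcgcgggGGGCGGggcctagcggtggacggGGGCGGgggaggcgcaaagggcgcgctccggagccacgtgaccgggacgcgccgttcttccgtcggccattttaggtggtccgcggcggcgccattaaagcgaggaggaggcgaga
None of these motifs contains another, and a match is a description of letters only. Srsf1 held a GC box and a CCAAT box, and Srsf3 a CCAAT box and the TATA motif. Tra2a held 2 GC boxes and a CCAAT box, and Hnrnpd held 3 GC boxes and an ETS motif. Of the 42 genes, 37 had 51 promoters in the table. Of these, 78.4% held GGGCGG against 35.7% of all 32851 promoters, 31.4% held CCGGAAG against 8.86%, 51.0% held CCAAT against 37.4% and 9.80% held TATAAA against 13.6%. Their median content of G and C was 64.3%, against 52.7% for all promoters.

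Among the other SR genes, Srsf6 was highest in wild-type replicate 3 in all 3 probe sets. Probe set 1448454_at read 1.007, 1.022 and 1.089 in wild-type and 0.993, 0.958 and 0.955 in mutant pools. These did not overlap, at a difference of -0.10 (SE 0.0830), while the other 2 probe sets overlapped (-0.058 and 0.026). Srsf2, which binds both C-rich and G-rich exon motifs, read 1.004, 1.026 and 1.102 in wild-type and 0.938, 0.996 and 0.995 in mutant pools in 1427504_s_at. Those groups did not overlap either, at -0.096 (SE 0.0850). Probe set 1415807_s_at of Srsf2 read 0.992, 1.025 and 1.040 in wild-type and 0.972, 0.986 and 1.008 in mutant pools, with overlap, a difference of -0.043 and one of the 3 smallest residual SDs of all members (0.0310).

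Srsf10, a splicing repressor when dephosphorylated, split by probe set. Probe set 1449121_at read 1.054, 0.995 and 0.799 in wild-type and 1.097, 0.997 and 1.003 in mutant pools, lowest in wild-type replicate 3, at a difference of 0.13 (SE 0.112). Probe set 1418527_a_at was highest in that same pool, at 1.458, and differed by -0.13. Srsf4 and Srsf5, with 1 probe set each, differed by -0.0038 and -0.028. Srsf11 had a mean of -0.040 over 2 probe sets, and Srsf9, a close relative of Srsf1, differed by 0.094.

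Hnrnph1 held the smallest p of all members. The hnRNPs F and H bind runs of G, and Hnrnph1 had 2 probe sets. Probe set 1437267_x_at read 1.114, 1.062 and 1.041 in wild-type and 0.891, 0.959 and 0.897 in mutant pools. Each mutant value was under each wild-type value. The means were 1.07 ± 0.0376 (SD, n = 3) and 0.916 ± 0.0376 (SD, n = 3). The log2 difference of -0.23 (SE 0.0840) had a 95% interval of -0.41 to -0.043, with a limma unadjusted p of 0.0201 and an adjusted p of 0.99996.

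The other Hnrnph1 probe set, 1415872_at, read 0.933, 1.023 and 0.977 in wild-type and 0.958, 1.025 and 1.045 in mutant pools, a difference of 0.046 (SE 0.0860) with overlapping groups. By the array's naming, the ending _x_at marks probes that may also match other transcripts. Hnrnpf was highest in wild-type replicate 3 in all 4 probe sets and differed by -0.16 to -0.0028. Hnrnph2 and Hnrnph3, with 1 probe set each, differed by 0.046 and 0.046, and Hnrnph2 ran from 0.870 in wild-type replicate 1 to 1.232 in wild-type replicate 3.

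**Figure D4:**
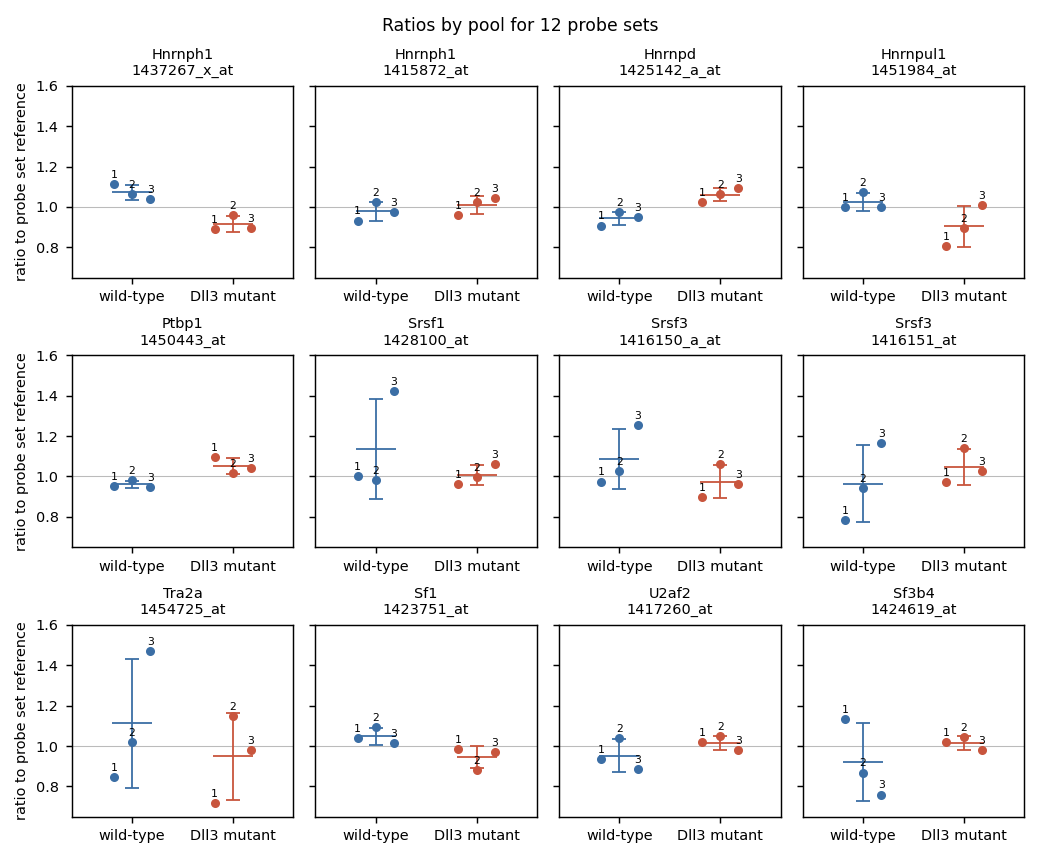
Ratio to the probe set's reference (vertical axis) in the 3 wild-type and 3 Dll3 mutant pools for 12 probe sets; small numbers are replicate numbers, and bars give mean and SD. The genotypes part in 1 probe set of Hnrnph1 and in those of Hnrnpd, Ptbp1 and Sf1, while in Srsf1 and Tra2a wild-type replicate 3 stands above the other 5 pools.

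Of the hnRNPs of the A, B and D type, Hnrnpd encodes AUF1, a protein known for binding AU-rich elements of short-lived mRNAs. Its only probe set, 1425142_a_at, read 0.908, 0.974 and 0.948 in wild-type and 1.026, 1.064 and 1.092 in mutant pools. Each mutant value was above each wild-type value, at a log2 difference of 0.17 (SE 0.0830), a 95% interval of -0.013 to 0.35 and a limma unadjusted p of 0.0662. The difference was 0.17 without wild-type replicate 3 and 0.21 with the sex score as a covariate.

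Its relative Hnrnpdl had the widest gap between probe sets of any member. Probe set 1428224_at read 0.954, 0.844 and 1.845 in wild-type and 1.046, 0.682 and 1.112 in mutant pools, the largest residual SD of all members (0.508). Its difference of -0.30 (SE 0.262) was 0.045 without wild-type replicate 3, its highest pool, and -0.081 without mutant replicate 2, its lowest. Probe set 1424252_at read 0.957, 0.939 and 1.037 in wild-type and 0.963, 1.062 and 1.164 in mutant pools, with overlap and a difference of 0.12 (SE 0.0964).

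Hnrnpa1 and Hnrnpa2b1 are abundant core hnRNPs that often silence exons. Hnrnpa1 1455305_x_at read 1.026, 1.016 and 1.118 in wild-type and 0.851, 0.959 and 0.984 in mutant pools. These groups did not overlap (-0.18, SE 0.0924), while the other 2 probe sets overlapped and differed by -0.011 and -0.0063. Because further probe sets name Hnrnpa1 together with other genes, signal from related transcripts cannot be told apart. Hnrnpa2b1 1433830_at read 0.728, 0.827 and 1.123 in wild-type and 0.877, 1.144 and 1.232 in mutant pools, with the 2 other wild-type pools under all mutant pools and replicate 3 inside their range (0.29, SE 0.164). Probe set 1420365_a_at of the same gene read 1.005, 0.947 and 1.068 in wild-type and 1.028, 0.995 and 0.919 in mutant pools (-0.038, SE 0.0899), and the remaining 2 differed by -0.029 and -0.0071.

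Hnrnpab, a relative with 7 probe sets, ranged from -0.13 to 0.19. Probe set 1415914_at had one of the smallest residual SDs (0.0246) and read 1.030, 1.076 and 1.059 in wild-type and 0.953, 0.968 and 0.970 in mutant pools. The groups did not overlap there (-0.13, SE 0.0805). Probe set 1448144_at read 0.974, 0.718 and 1.032 in wild-type and 1.011, 0.989 and 1.067 in mutant pools, with wild-type replicate 2 far below the rest (0.19, SE 0.128).

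Of the 8 remaining hnRNP genes 3 lay above 0 and 5 below. Hnrnpul1, a relative of the scaffold attachment factor Hnrnpu, read 1, 1.075 and 1 in wild-type and 0.808, 0.897 and 1.010 in mutant pools. Mutant replicates 1 and 2 lay below all wild-type pools and replicate 3 among them, at a difference of -0.18 (SE 0.0996). Hnrnpll, known for the splicing of CD45 in lymphocytes, read 1.003, 1.093 and 1.061 in wild-type and 0.875, 0.989 and 0.997 in mutant pools in 1425255_s_at. These did not overlap (-0.14, SE 0.0903), and its other probe set did (0.021).

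Hnrnpl, the close relative of Hnrnpll and no member, read 0.880, 0.705 and 0.609 in wild-type and 1.120, 1.375 and 1.504 in mutant pools. These did not overlap, at a log2 difference of 0.87 (SE 0.144, limma unadjusted p = 8.3e-05, adjusted p = 0.94). The difference was 0.34 in the fit that included the sex score, and its cause was not tested. Hnrnpm and Hnrnpr reached 0.29 and 0.25 above their mean over pools (log2) in wild-type replicate 3. Hnrnpk, which binds C-rich stretches, was highest there in 3 of 4 probe sets. Hnrnpc, which binds U tracts of nascent transcripts, differed by 0.022 and 0.050, the 5 probe sets of Hnrnpu by -0.16 to 0.073, and the 2 of Hnrnpul2 by -0.11 and 0.075.

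The polypyrimidine tract binding proteins repress exons, and Ptbp2 takes over from Ptbp1 as neurons form. Ptbp1 1450443_at read 0.951, 0.983 and 0.950 in wild-type and 1.097, 1.017 and 1.042 in mutant pools. The groups did not overlap (0.13, SE 0.0825), and the other Ptbp1 probe set overlapped (0.040). Ptbp2 differed by -0.052 and -0.025, with overlap in both.

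The 12 genes of the 3' splice site and of SF3 had a mean centred level of -0.018, -0.0029 and -0.012 in wild-type and -0.035, 0.014 and 0.054 in mutant pools. The mean of wild-type replicate 3 did not stand out, but its genes ran from -0.27 for Sf3b4 to 0.15 for Sf3b1. That pool held the highest value of 9 of the 27 probe sets (33.3%, against 22.04% of all). Of these genes 8 lay above 0 and 4 below (median 0.025). The counts were 7 and 5 without wild-type replicate 3, and 5 and 7 without wild-type replicate 1 (median -0.0079) or without mutant replicate 3 (median -0.0082). Sf1, the branch point binding protein, read 1.038, 1.096 and 1.013 in wild-type and 0.987, 0.881 and 0.969 in mutant pools in 1423751_at. These did not overlap (-0.15, SE 0.0876), and its other 2 probe sets overlapped (-0.050 and 0.024). U2af2, which binds the polypyrimidine tract, read 0.934, 1.040 and 0.884 in wild-type and 1.020, 1.049 and 0.980 in mutant pools, with overlap (0.096, SE 0.0914), and U2af1, which reads the AG at the intron's end, differed by 0.0087.

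The means of the 3 SF3A genes were 0.0077 for Sf3a1, 0.070 for Sf3a2 and 0.042 for Sf3a3, with overlap in all 6 probe sets. Sf3b1, the subunit that clasps the branch site, ran from -0.0070 to 0.11 over 3 probe sets, and Sf3b3 differed by 0.048. Sf3b4 1424619_at read 1.132, 0.869 and 0.760 in wild-type and 1.022, 1.043 and 0.978 in mutant pools. All mutant pools lay inside the wild-type range, of which replicate 3 was the bottom, at a difference of 0.16 (SE 0.130). Sf3b2 1438637_x_at read 0.860, 0.907 and 1.387 in wild-type and 0.808, 1.093 and 1.162 in mutant pools (-0.025, SE 0.182), with one of the 3 largest residual SDs (0.333). Its probe set 1456352_a_at read 0.970, 1.008 and 0.992 in wild-type and 0.960, 1.080 and 1.158 in mutant pools (0.10, SE 0.0932), and both overlapped.

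Sf3b5 1439370_x_at had the smallest residual SD of all members (0.0173) and read 0.785, 0.787 and 0.767 in wild-type and 0.730, 0.733 and 0.743 in mutant pools. The groups did not overlap, and the difference was -0.084 (SE 0.0800). It is 1 of 2 member probe sets with a row median below 1, whose reference is not known. The other Sf3b5 probe set overlapped (-0.0060). Sf3b6, which touches the branch point, read 1.016, 0.984 and 1.274 in wild-type and 0.928, 1.025 and 0.970 in mutant pools in 1417055_at, with overlap (-0.16, SE 0.109), and its 4 probe sets ranged from -0.16 to 0.014.

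Probe sets of one gene often had differences of unlike sign. Among the 30 genes with more than 1 probe set, all shared a sign in 11 and differed in sign in 19. The same count was not made over all genes of the array. With a median SE of 0.104, small differences can take either sign, so these counts alone show no disagreement. The 10 probe sets without overlap belonged to 10 genes, and apart from Hnrnpd, which has no other, every other probe set of these genes overlapped. Probe sets can read different ends or isoforms of a transcript, and their positions were not analysed here. Among 11 pairs of relatives, gene means were furthest apart for Hnrnpd and Hnrnpdl (0.17 and -0.035), then Tra2a and Tra2b (-0.22 and -0.020) and Hnrnpul1 and Hnrnpul2 (-0.18 and -0.018). They were closest for Hnrnpf and Hnrnph1 (-0.091 and -0.091), though the Hnrnph1 mean averages probe sets at -0.23 and 0.046. None of these contrasts was tested. Ptbp1 and Ptbp2 stood at 0.085 and -0.039.

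Other splicing genes were covered by 8 lists, with 86 of 107 genes measured by 208 probe sets. None passed the adjusted threshold in limma, and 7 probe sets had an unadjusted p under 0.05 (3.37%, against 2.63% of all). Gene means lay above 0 for 51 and below for 35 (median 0.019), where 51.9% of all genes lay above 0. The smallest p was that of 1 probe set of Ewsr1, of the FET family of RNA-binding proteins, at 0.30 (SE 0.0925), while its other 2 were at 0.094 and 0.030. Of the 5 probe sets of Luc7l2, a U1 snRNP associated factor, 2 were at 0.40 (SE 0.152) and 0.37 (SE 0.190) and the others at 0.036, -0.025 and 0.0090. In those 2 the groups overlapped. Mutant replicate 2 read 1.512 and 1.812 there, and the next highest pool, mutant replicate 3, read 1.059 and 1.169. Qk, an RNA-binding regulator of alternative exons, had 4 probe sets at -0.32, 0.32, -0.097 and -0.056.

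Wild-type replicate 3 held the highest value of 43.8% of these 208 probe sets. The share was 13 of 24 for kinases and import factors of SR proteins, 52 of 112 for SR-related and other regulators, 9 of 28 for U4/U6 and U5 snRNP, 9 of 23 for the Prp19 complex and step factors and 5 of 6 for the other U2 snRNP genes. It was 2 of 8 for the Sm core, 1 of 5 for the exon junction complex and 0 of 2 for U1 snRNP. Genes above and below 0 numbered 13 and 3 for U4/U6 and U5 snRNP (16 of 22 measured, median 0.038), 20 and 16 for the regulators, 6 and 5 for Prp19 and step factors, 6 and 4 for the SR kinases, 3 and 1 for the exon junction complex, 1 and 4 for the Sm core, and 1 and 1 for both U1 and other U2 genes.

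In the fit that included the sex score, the median over the 42 member genes was 0.065, beside -0.0013 over all genes. That score was higher in every mutant pool than in any wild-type pool, so this fit separates sex mix and genotype poorly.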

How the data were processed

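The authors deposited 1 table of linear ratios for 6 arrays. The submitters' processing notes name RMA and MAS5 and give no role or version for either, and the scaling of the arrays is unknown. In 21148 of 22626 probe sets the median over the 6 pools is 1, and in the other 1478 it is lower, with an unknown reference. A ratio holds no signal level, so dim probe sets could not be removed. The 64 control probe sets were left out. Genes were named from the platform annotation, and all 42 symbols equal those of the RefSeq gene table (GRCm38.p6).

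Log2 ratios without pseudocount were fitted with limma 3.58.1 in R 4.3.3 (lmFit, eBayes without trend, genotype only, 6 pools, two-sided, Benjamini-Hochberg over 22626 probe sets). The series design calls the pools biological replicates. A gene's value is the mean of its probe sets. The fit was tested on simulated data with independent noise, whose SD for a probe set was equal in all 6 arrays. Those data lacked the shared differences between pools described above, so the test does not cover them. Equal replicate numbers were not taken as pairs, as the labels name no shared litter or day.

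The members, lists, tests and alternatives were chosen with earlier results of these data known. Given by pool were the genes with one of the 6 smallest p in each of 3 blocks (hnRNP with Ptbp, SR with Tra2, the rest), those without overlap, the 5 widest gaps between probe sets of a gene, and the 3 smallest and largest residual SDs; a few others were named after their values were seen. Alternatives were a replicate block, a trend, a robust trend, array weights, quantile normalization, median centring, pools or kinds of probe set left out, a sex score covariate, 1 most variable probe set per gene and other thresholds. Protein identity of relatives was not analysed here. Figures were drawn with matplotlib 3.10.9.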

Additional observations from a re-analysis of the deposited data

How the results depend on the processing

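No member probe set passed the adjusted threshold in limma under any of the 16 alternative fits, and the smallest adjusted p of a member in any of them was 0.631. Over all probe sets 0 passed as reported, 1 with the replicate block, 1 with array weights, 2 in the robust fit with a trend, and 0 to 1 with 1 pool left out. Members at an unadjusted p under 0.05, with the share of members and that of all probe sets, numbered 1 as reported (0.901% and 2.63%), 3 with the replicate block (2.70% and 4.74%), 5 with array weights (4.50% and 7.82%), 5 with both pools numbered 3 left out (4.50% and 3.66%), 0 without probe sets ending in _x_at or _s_at (2.68% of all) and 0 when the sex score was included (1.18% of all). At an unadjusted p under 0.01 there were 0 as reported, but the share of all probe sets was not counted there, so this 0 has no background. With 1 pool left out, members at an unadjusted p under 0.05 numbered 1 to 7. There were 7 without wild-type replicate 3 (6.31% and 5.43%) and 3 without mutant replicate 1 (2.70% and 4.48%). Deviations of same-numbered pools from their group means correlated at 0.37, -0.025 and 0.37 for numbers 1, 2 and 3. Those of unlike-numbered pools correlated at -0.43 to 0.20. Whether the numbers mark pairs cannot be told from these values. The median over member genes, -0.011 as reported, was 0.065 when the sex score was included; over the other settings it lay between -0.032 and 0.035, on both sides of 0.

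Of 440 alternative values of the 28 probe sets given by pool, 20 changed sign, in 8 probe sets, none of them called. With array weights these were Tra2a 1454725_at (0.023) and Sf3b2 1438637_x_at (0.17). With both pools numbered 3 left out these were Hnrnpa2b1 1420365_a_at (0.052) and Sf3b2 1438637_x_at (0.090). With quantile normalization it was Sf3b2 1438637_x_at (0.037). With the sex score these were Hnrnpa2b1 1420365_a_at (0.020), Hnrnpdl 1428224_at (0.28), Srsf1 1428100_at (0.071), Srsf10 1449121_at (-0.056), Tra2a 1454725_at (0.056), Sf3b2 1438637_x_at (0.17) and Sf3b4 1424619_at (-0.27). With 1 pool left out the ranges were -0.081 to 0.0085 for Hnrnpa2b1 1420365_a_at, -0.52 to 0.045 for Hnrnpdl 1428224_at, -0.25 to 0.019 for Srsf1 1428100_at, -0.0049 to 0.28 for Srsf3 1416151_at, -0.39 to 0.0033 for Tra2a 1454725_at and -0.15 to 0.19 for Sf3b2 1438637_x_at. The cause was not tested.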
